A study of Mus musculus with 39 samples.

Results

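Transcripts of heart muscle were present in some RNA libraries of sorted mouse pancreatic tumour cells and virtually absent from others. Counts of each of 39 libraries were scaled to CPM, the count divided by the library total and multiplied by 1000000, and the levels of Myh6, Myh7, Myl2 and Mb were added to give a heart sum. Myh6 and Myh7 encode the alpha and beta myosin heavy chains of heart muscle, Myl2 a ventricular myosin light chain and Mb the oxygen-binding protein myoglobin. A library with a heart sum of 10 CPM or more is called heart-bearing here, which gave 19 libraries, and the other 20 are called heart-free. The split was made on these values, so the difference in heart genes between the kinds is a description and carries no test.

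All libraries came from tumours that grew from clonal pancreatic tumour cell lines under the skin of C57BL/6 mice, without treatment, and were collected 3 weeks after implantation. Tumour cells were sorted, and each library was made from 500 ng of their total RNA. The labels class 9 clones as T cell low (18 libraries), 6 as T cell high (14 libraries) and 2 as intermediate (4 libraries), and give 3 clones (3 libraries) no class. The labels do not say whether libraries of 1 clone came from separate animals, so the spread between them may be technical. Heart-bearing libraries made up 9 of the low, 6 of the high, 2 of the intermediate and 2 of the unclassed libraries. Of the 20 clones, 15 had both kinds of library (34 libraries, 16 heart-bearing and 18 heart-free), 3 had heart-bearing ones only and 2 had heart-free ones only. Among heart-bearing libraries, 18 carried number 1 at the end of their title and the other was tumour 2 of clone yfp_2699c4, while 1 of the 20 heart-free libraries carried number 1. Kind and title number can therefore hardly be told apart.

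Library totals ran from 7638130 to 103794674 counts, with a median of 34565903. The lowest and the highest total both belonged to heart-bearing libraries, and the heart-free ones lay between 26866065 and 41683806. Over the 15 clones with both kinds, the log2 total of heart-bearing libraries minus that of heart-free ones was -0.04 ± 0.74 (SD, n = 15), and it was higher in 6 of the 15 (two-sided exact permutation test over sign changes, p = 0.833). The labelled tumour cells were present in both kinds: Krt19, a keratin of ductal epithelium, was at 469 to 2014 CPM in heart-bearing and 635 to 2926 CPM in heart-free libraries.

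Heart and liver differ in the genes that define them. Ventricular muscle is built around sarcomere proteins, the troponins and myosins, and around calcium-handling proteins. Hepatocytes make most proteins of the blood plasma, among them albumin, the fibrinogen chains and the apolipoproteins, and hold the enzymes of the urea cycle and of methionine metabolism. None of these programmes is typical of ductal pancreatic tumour cells. Because these are bulk libraries, more cells of a type and more RNA per cell cannot be told apart.

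The 300-base windows (250 bases before and 50 after the RefSeq start, GRCm38.p6) of Alb, the albumin gene, and of Myh6 are shown as 1 liver gene and 1 heart gene whose levels ran in parallel across libraries. The Alb window lies at chr5:90460620-90460919 on the plus strand and the Myh6 window at chr14:54966558-54966857 on the minus strand. Capitals mark GTTAAT, a half-site of the liver-enriched factor HNF1, in Alb, and GGAATG, the reverse complement of the M-CAT letters CATTCC bound by TEAD factors in muscle genes, in Myh6.

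Alb: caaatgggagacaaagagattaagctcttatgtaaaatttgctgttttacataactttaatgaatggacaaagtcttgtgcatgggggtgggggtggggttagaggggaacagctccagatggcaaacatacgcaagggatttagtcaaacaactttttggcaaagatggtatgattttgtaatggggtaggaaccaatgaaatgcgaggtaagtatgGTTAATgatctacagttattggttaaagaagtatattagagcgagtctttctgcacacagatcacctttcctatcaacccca
Myh6: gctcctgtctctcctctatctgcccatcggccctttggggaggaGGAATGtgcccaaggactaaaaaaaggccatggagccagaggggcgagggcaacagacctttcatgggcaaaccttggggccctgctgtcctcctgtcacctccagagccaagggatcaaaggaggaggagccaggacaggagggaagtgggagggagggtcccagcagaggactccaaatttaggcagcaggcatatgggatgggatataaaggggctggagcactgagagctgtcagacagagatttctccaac

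GTTAAT on either strand was found in 7.10% of 32851 promoters of this length, in 4 of 15 promoters of the liver list below and in 2 of 21 of the heart list. CATTCC on either strand was found in 14.7% of all promoters, in 6 of the 21 heart-list promoters and in 3 of the 15 liver-list promoters. Several starts of 1 gene count separately, the motifs do not overlap, and a match describes letters in this window only.

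The heart sum was 152 CPM in the lowest heart-bearing library, 2647 CPM in the median one and 4893 CPM in the highest. In heart-free libraries the highest heart sum was 0.235 CPM, and 6 libraries had no count of any of the 4 genes. No library lay between 0.235 and 152 CPM, so thresholds of 1 and 100 CPM give the same split. The heart-bearing library nearest to the threshold was tumour 1 of yfp_6499c3, which was also the most deeply counted one. The next were tumour 1 of yfp_6556c3 with 568.3 CPM and tumour 1 of yfp_6694c2 with 741 CPM. The other end was crowded: 6 libraries of 6 clones had heart sums between 4593 and 4893 CPM.

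**Figure D1:**
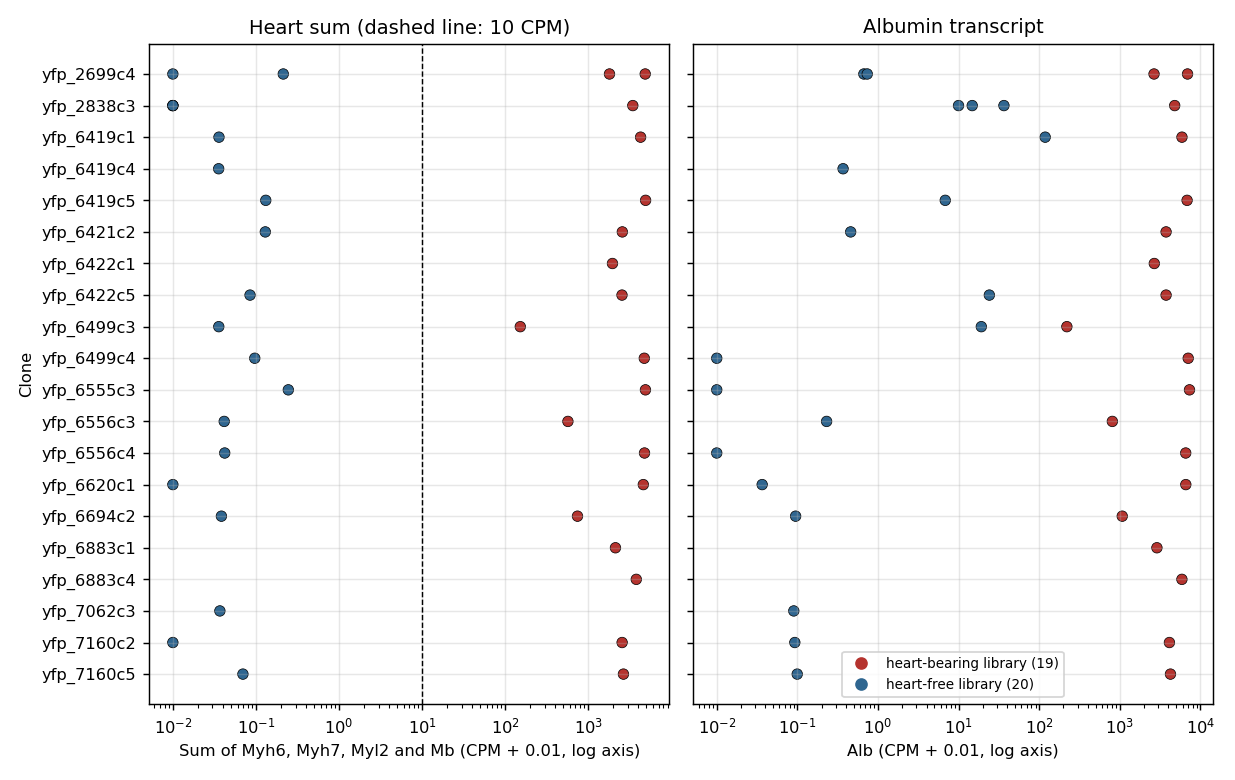
Heart sum (left) and Alb level (right) in CPM on log axes, with 0.01 added, for each library (points) by clone (rows). The 19 heart-bearing libraries lie at 152 CPM or more on the left and at 220.4 CPM or more on the right, and the 20 heart-free ones at 0.235 CPM or less and at 118.7 CPM or less.

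Within the heart genes the proportions were nearly fixed. Myh7 (chr14:54970684-54994626, minus strand, GRCm38) was at 83.5, 1439 and 2675 CPM in the lowest, median and highest heart-bearing library. Myh6, its neighbour at chr14:54941921-54966927, was at 45.4, 780 and 1429 CPM. The ratio of Myh6 to Myh7 was 0.538 ± 0.0074 (SD, n = 19), with a range of 0.523 to 0.552. Its coefficient of variation over the 19 libraries was 1.38%, while counting alone gives an error of 0.522% to 1.97% in a library. Counts were not corrected for gene length, so such a ratio compares libraries and not amounts of RNA.

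Most other heart-list genes were also in a narrow proportion to the heart sum, with Tnnt2 and Myl7 as exceptions. Of 16 heart-list genes tested, the 4 of the sum among them, 15 were called higher in heart-bearing libraries at an adjusted p under 0.05 in the fit with clone as a block, where 31.9% of all 19510 genes tested were called higher and 27.3% lower. These calls rest on the same split and are given as a description only, as are the 1017 genes (5.21%) called with a log2 difference over 4. Pln, which encodes the calcium-pump regulator phospholamban, was at 12.3 to 523.7 CPM against at most 0.235 CPM. Myl3, a ventricular light chain, was at 6.96 to 249 CPM against at most 0.0672 CPM. Mybpc3, which encodes cardiac myosin-binding protein C, was at 57.8 to 61.1 CPM for each 1000 CPM of heart sum in all 19 libraries. The atrial light chain gene Myl7, in contrast, was at 0 to 0.453 CPM in heart-bearing and 0 to 0.907 CPM in heart-free libraries. Sln, an atrial calcium-pump regulator, was at 0.0771 to 4.34 CPM against at most 0.063 CPM. Nppa, the atrial natriuretic peptide gene, was at 1.03 to 32.6 CPM against at most 0.134 CPM, above every heart-free library in all 19. Tnnt2, cardiac troponin T, overlapped between the kinds, with 115.8, 567.0 and 1017 CPM against 10.3, 109.5 and 685.3 CPM (lowest, median, highest). For each 1000 CPM of heart sum it ran from 195.1 to 762.3 CPM, and its slope on the heart sum was 0.56 ± 0.04 (SE).

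Liver transcripts came with the heart transcripts in every heart-bearing library. Alb (chr5:90460897-90476602, plus strand) was at 220.4, 4252 and 7321 CPM in the lowest, median and highest heart-bearing library, against 0, 0.404 and 118.7 CPM in heart-free ones. The groups did not overlap. The level of Alb was 1.45 times the heart sum in the median library, with a range of 1.36 to 1.62, and the log2 ratio had an SD of 0.072 (n = 19). All 19 tested genes of the liver list were called higher.

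The plasma protein genes behaved alike. Fga, Fgb and Fgg encode the 3 fibrinogen chains, Hpx the haem-binding protein hemopexin, Ahsg the carrier fetuin-A and Apoa1 the main protein of high-density lipoprotein. Fgb was at 78.8 to 2567 CPM and Fga at 59.9 to 2078 CPM, and neither overlapped with the heart-free libraries. Ahsg was at 59.1 to 1841 CPM against at most 0.828 CPM. Within the liver genes the ratio of Fgb to Alb was 0.349 ± 0.0066 (SD, n = 19) and that of Hpx to Alb 0.298 ± 0.0089 (SD, n = 19). Hp, which encodes haptoglobin, overlapped, with 45.2 to 1214 CPM against 0.577 to 217.6 CPM. Mat1a, by contrast, never passed 0.239 CPM in a heart-free library.

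Genes of liver metabolism were virtually absent from heart-free libraries. Mat1a, which makes the methyl donor S-adenosylmethionine, was at 36.6 to 1192 CPM. Cps1, the first enzyme of the urea cycle, was at 26.5 to 887 CPM against at most 0.259 CPM. Bhmt, which remethylates homocysteine, was at 4.10 to 145.2 CPM and had no count in any heart-free library. The sum of Ahsg, Mat1a and Cps1 stood at 0.774 of the heart sum (0.72 to 0.851), with an SD of the log2 ratio of 0.064. Against Alb instead of the heart sum that SD was 0.038.

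Skeletal muscle genes were present at a lower level. Myh1, a fast myosin heavy chain, was at 6.03, 102.5 and 170.0 CPM in the lowest, median and highest heart-bearing library, against at most 0.231 CPM in heart-free ones. Its level was 0.0341 of the heart sum in the median library, and the SD of the log2 ratio was 0.106 (n = 19). Ckm, the creatine kinase of muscle, and Acta1, skeletal actin, were at 2.58 to 65.7 CPM and 8.86 to 186.1 CPM and did not overlap either. All 10 tested genes of this list were called higher. Pvalb, parvalbumin of fast fibres, stayed at or under 0.355 CPM.

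For a gene well above 1 CPM, a slope of 1 on log scales means that its level is proportional to the heart sum. Over the 19 heart-bearing libraries, log2(CPM + 1) of each gene was fitted on the log2 heart sum with limma. The added 1 flattens the slope of genes of a few CPM, so a slope under 1 there can go with a steady ratio. Sln, at 0.0771 to 4.34 CPM, had a slope of 0.46. Its ratio to the heart sum had a coefficient of variation of 16.3%. The 4 genes of the sum enter the fit, but their slopes follow from its definition and are not read. Of 15390 genes tested, 3898 (25.3%) had a positive and 1455 (9.45%) a negative slope at an adjusted p under 0.05. With TMM factors, which rescale for composition, the split was 2821 positive and 3921 negative, so the direction of weak slopes can depend on the scaling. The median slope of all genes was 0.02, the range -0.74 to 1.04, and 219 genes had a slope over 0.8.

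Liver and heart genes lay at the top of this range. The slope was 1.001 ± 0.020 (SE) for Alb, 1.04 ± 0.02 for Pln, 0.99 ± 0.02 for Cps1 and 1.004 ± 0.020 for Cyp2e1, a drug-metabolizing enzyme of the liver, with adjusted p-values of 7.925e-20, 3.28e-20, 5.28e-20 and 7.87e-20 (limma). All 11 other heart-list genes and 18 of 19 liver-list genes had positive slopes past the threshold, as did 9 of 9 skeletal muscle genes. The list medians were 0.93, 0.98 and 0.89. The exception in the liver list was Apob, apolipoprotein B, with a slope of 0.16 ± 0.14 (adjusted p = 0.408, limma). Apob was at 2286 CPM in tumour 1 of yfp_6499c3 and already at 1660 CPM in the heart-free library of that clone.

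**Figure D2:**
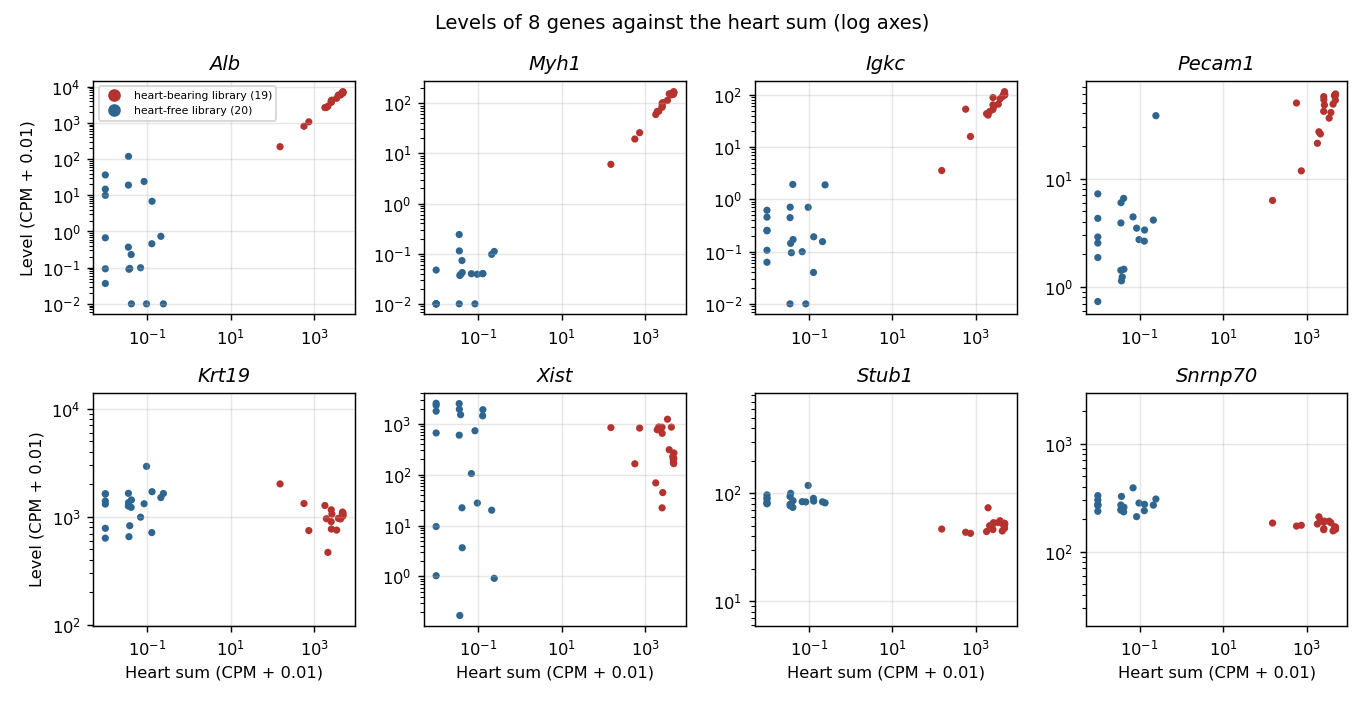
Levels of 8 genes (CPM, 0.01 added) against the heart sum (CPM, 0.01 added) in 39 libraries, on log axes. Alb and Myh1 follow the heart sum closely over the heart-bearing libraries, Igkc and Pecam1 more loosely, Krt19 and Xist show no such line, and Stub1 and Snrnp70 sit lower at every heart sum.

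A wider set was built from genes nearly silent in heart-free libraries. In all, 21621 genes were under 0.5 CPM in every heart-free library, and 168 of them averaged at least 5 CPM in heart-bearing ones. This set is defined by the heart-free values, and it holds the 4 genes of the heart sum. Together these genes took 0.104%, 1.16% and 2.03% of counts in the lowest, median and highest heart-bearing library, against 0.0288% to 0.0546% in heart-free ones. The 10 highest, which include Serpina3k, Tat, Kng1, Myom2 and Pck1, held 47.6% of the sum. The sum was 4.16 times the heart sum in the median library (3.93 to 6.83), and the highest ratio belonged to tumour 1 of yfp_6499c3. In the heart-free library of that clone the same genes took 0.0389% of counts. The ratios include such a floor, which was not subtracted and weighs most at a low heart sum.

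A further set of transcripts from blood and vessels was higher in heart-bearing libraries but followed the heart sum less tightly. All 10 endothelial genes were called higher, against 31.9% of all genes tested. All 10 had positive slopes past the threshold, with a median of 0.53, against 25.3% of all genes tested for a slope. Pecam1, the endothelial adhesion molecule CD31, was at 6.27, 48.8 and 60.7 CPM against 0.72, 3.11 and 38.2 CPM (lowest, median, highest). Its slope was 0.53 ± 0.08 (adjusted p = 4.37e-05, limma). The 2 kinds overlapped, and 13 of the 19 heart-bearing libraries lay above every heart-free one. Des, desmin of muscle cells, was closer to the heart genes, with 12.4 to 358.3 CPM, a slope of 0.94 ± 0.02 and an adjusted p of 7.925e-20 (limma).

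Immune transcripts divided into those that followed the heart sum and those that did not. Igkc, the kappa light chain constant gene of antibodies, was at 3.56, 66.3 and 115.1 CPM against at most 1.92 CPM, with a slope of 0.79 ± 0.08 (adjusted p = 2.77e-08, limma). Ighm, the heavy chain gene of IgM and the only other B cell list gene with enough counts for this fit, was at 1.54 to 36.4 CPM against 0.0257 to 11.7 CPM, with a slope of 0.19 ± 0.15 (adjusted p = 0.331, limma). Clec4f, a receptor of the resident macrophages of the liver (Kupffer cells), was at 0.453 to 13.6 CPM with no count in any heart-free library, and its slope was 0.72 ± 0.04 (adjusted p = 1.47e-12, limma). Marco, a scavenger receptor of resident macrophages, had a slope of 0.81 ± 0.03 (adjusted p = 5.84e-16, limma). General macrophage genes had no such slope. Lyz2 (lysozyme) was at 251 to 1160 CPM against 17.1 to 1883 CPM with a slope of -0.01 ± 0.11 (adjusted p = 0.934, limma), and C1qa (complement C1q) had a slope of -0.04 ± 0.10 (adjusted p = 0.786, limma). Of the 11 macrophage genes, 10 were called higher and 3 had a positive slope. Over all genes tested, 31.9% were called higher and 25.3% had a positive slope. The 3 macrophage slopes are near that share and are not read as a trait of the list. All 8 pan-leukocyte genes were called higher and none of the 8 had a slope past the threshold in either direction.

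Blood and stroma lay between. All 7 red blood cell genes were called higher and 4 of 5 tested had a positive slope. Hbb-bs, a beta globin gene with near-identical copies, was at 10.7 to 231.5 CPM against 0.883 to 72.6 CPM. All 10 fibroblast and matrix genes were called higher, 6 of them with a positive slope. The shares over all genes tested were 31.9% called higher and 25.3% with a positive slope. Dcn (decorin) was at 10.3 to 274.2 CPM against 0.792 to 142.3 CPM and had the steepest slope of that list, 0.70 ± 0.10 (adjusted p = 9.34e-06, limma). Col1a1 (collagen I) was at 288.4 to 2982 CPM against 42.7 to 7098 CPM, and its highest value belonged to a heart-free library.

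Other organs were thinly represented. The lung surfactant gene Sftpc was at 0.308 to 13.6 CPM against at most 0.0641 CPM. A positive slope was found in 6 of 7 lung genes, against 25.3% of all genes tested. Of the kidney list, Umod, Slc34a1, Kap and Slc22a6 were at or under 0.175 CPM in heart-bearing libraries. The islet hormone gene Ins2 and the intestinal gene Defa24 had no count in any library, and the sperm protamine genes Prm1 and Prm2 were at or under 0.32 CPM in heart-bearing ones. Gad2, which makes the transmitter GABA, was at 0.636 to 20.8 CPM with a slope of 0.77 ± 0.04, while the myelin gene Mbp had a slope of 0.10 ± 0.07 (adjusted p = 0.287, limma). Apoa4, made by intestine and liver, was at 0.809 to 19.5 CPM against at most 0.0518 CPM. The retinal transducin gene Gnat1 was at 0.53 to 11.2 CPM against at most 0.466 CPM.

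**Figure D3:**
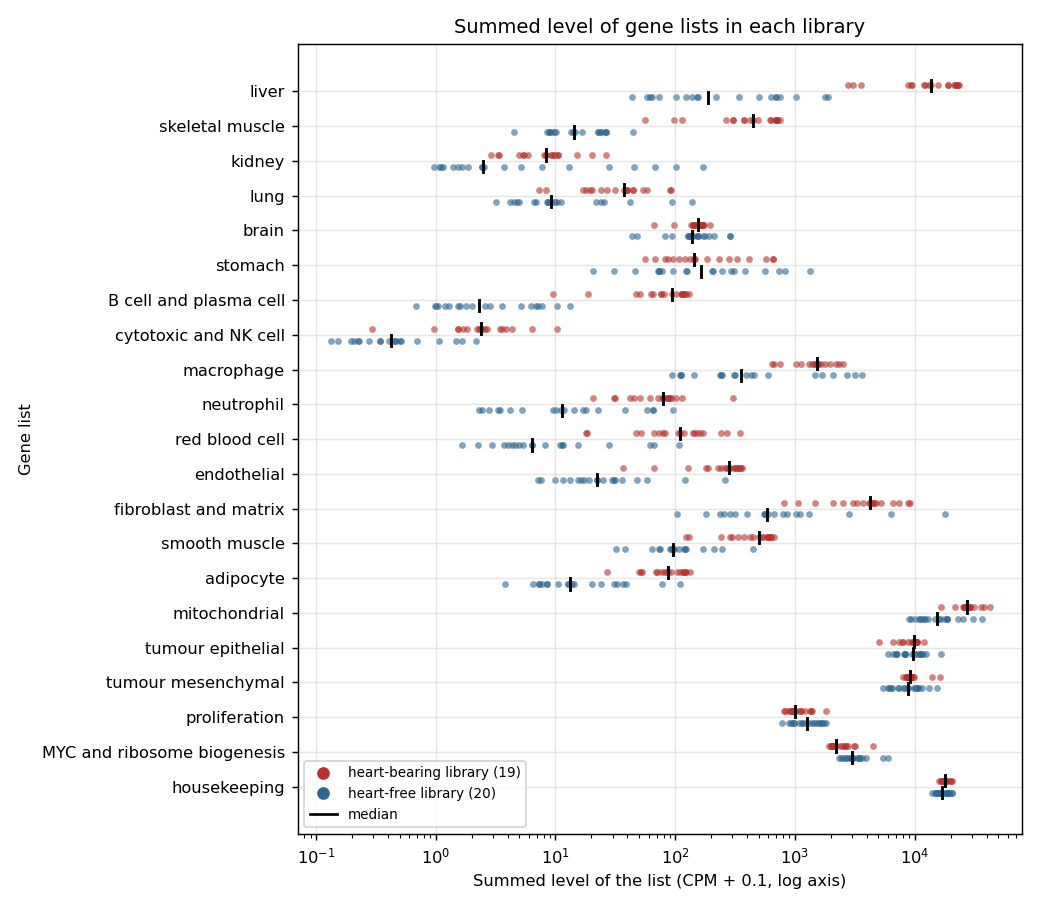
Summed level of 21 gene lists (CPM, 0.1 added, log axis) in each library, with the median of each kind as a black bar. Liver and skeletal muscle lists do not overlap between kinds, while immune, vessel and stroma lists overlap. Tumour epithelial, tumour mesenchymal and housekeeping lists have similar medians. The medians of the proliferation list (995 against 1267 CPM) and the MYC and ribosome biogenesis list (2194 against 3032 CPM) are lower in heart-bearing libraries.

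The rule did not use sex-linked genes. Ddx3y is a Y-linked RNA helicase gene and Xist the RNA that silences an X chromosome in female cells. In 10 of the 15 clones with both kinds the heart-free libraries held under 0.5 CPM of Ddx3y. In the 11 heart-bearing libraries of those clones Ddx3y was at 4.55 to 45.7 CPM. Per 1000 CPM of heart sum it was at 8.01 to 9.94 CPM in 10 of them and at 50.1 CPM in tumour 1 of yfp_6499c3. Xist and Ddx3y were both present in all 19 heart-bearing libraries. Over all 19 the slope of Ddx3y was 0.65 ± 0.09 (adjusted p = 7.76e-06, limma).

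Few genes were lower in every heart-bearing library. Of the 19510 genes, 17 (0.0871%) were lower in every heart-bearing library than in any heart-free one, against 390 (2.0%) that were higher in every one. Stub1 (chr17:25830505-25833404, minus strand), an E3 ubiquitin ligase that acts with chaperones, was at 42.5, 51.2 and 73.2 CPM in heart-bearing and at 73.8, 83.3 and 117.8 CPM in heart-free libraries. Its log2 difference was -0.90 ± 0.05 (SE). Snrnp70, a protein of the U1 splicing particle, was at 155.7, 172.6 and 210.5 CPM against 210.9, 270.1 and 389.6 CPM. Also in this set were Psma1 and Psmb5, subunits of the proteasome, Sumo2, a small protein modifier, Pcbp1, an RNA-binding protein, and Szrd1. The other 10 carry pseudogene or provisional names, such as Rpl3-ps2, and share sequence with expressed genes, so their counts are uncertain.

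The 15 lower genes with the smallest p among those averaging at least 50 CPM in heart-free libraries include, beside Stub1 and Snrnp70, Polr2f, a subunit shared by the RNA polymerases. Hnrnpm and Khsrp, RNA-binding proteins, are others, with Snrpd2 and Lsm4 of the splicing machinery, Gar1 of snoRNA particles and Rbm8a of the exon junction complex. Pfdn2 is a subunit of the chaperone prefoldin and Ddr1 a collagen receptor. Among the genes named here the log2 differences ran from -1.35 ± 0.10 for Snrpd2 to -0.75 ± 0.06 for Khsrp. No enrichment of any function was tested.

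Most of these lower genes had slopes near 0 on the heart sum. The slope was 0.04 ± 0.03 for Stub1 (adjusted p = 0.339, limma), 0.05 ± 0.05 for Polr2f (adjusted p = 0.506, limma) and -0.03 ± 0.03 for Snrnp70 (adjusted p = 0.374, limma). With TMM factors the slope of Snrnp70 was -0.10 ± 0.03 (adjusted p = 0.00661, limma) and that of Stub1 -0.02 ± 0.03 (adjusted p = 0.592, limma). The steepest of the 15 were -0.18 ± 0.06 for Snrpd2 and -0.16 ± 0.06 for Gar1. In tumour 1 of yfp_6499c3, with the lowest heart sum, Stub1 was at 46.5 CPM, against 78.8 CPM in the heart-free library of the clone. Polr2f was at 45.2 CPM against 99.4 CPM, and Hnrnpm at 313.3 CPM against 647.7 CPM. In that library the genes under 0.5 CPM in every heart-free library took 0.104% of counts.

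A pair of ribosomal protein pseudogenes was higher. Rps2-ps13 was at 9.90, 178.8 and 292.5 CPM against at most 0.897 CPM in heart-free libraries, with a slope of 0.95 ± 0.02 (adjusted p = 2.4e-19, limma). Rpsa-ps10 was at 17.7 to 272.7 CPM against 4.09 to 15.4 CPM, with a slope of 0.80 ± 0.03. Both names were picked after their values were seen, and reads of the parent genes may be counted for them.

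Lists of tumour cell functions differed in some members. Each list was summed, and the heart-bearing level of a clone was set against its own heart-free level over the 15 clones. Genes of MYC targets and ribosome building stood at a median of 74.5% of the heart-free level (51.9% to 93.0%) and were lower in all 15 clones, with a mean log2 ratio of -0.44 ± 0.24 (SD, n = 15). Of the 10 genes, 5 were called lower: Ncl, Nop58, Fbl, Npm1 and Odc1. The share called lower over all 19510 genes tested was 27.3%. Proliferation genes stood at a median of 87.1% and were lower in 10 of 15 clones. Of the 12 proliferation genes, 6 were called lower, which were the helicase subunits Mcm2, Mcm3, Mcm5 and Mcm6, the replication clamp Pcna and the thymidylate synthase Tyms. Cdk1 and Ccnb1, partners in mitotic entry, were called higher, and Mki67, Top2a, Birc5 and Rrm2 were not called. Mcm2 was at 65.8, 74.9 and 150.3 CPM against 95.4, 150.7 and 225.6 CPM, and Cdk1 at 43.8, 54.5 and 83.0 CPM against 28.8, 41.4 and 52.1 CPM.

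The epithelial, mesenchymal, glycolytic and housekeeping sums had medians near their heart-free level but ranged widely over clones. The medians were 94.6% (61.8% to 112%), 109% (81.6% to 177%), 109% (69.5% to 134%) and 103% (87.8% to 130%). In the same order, 9, 7, 6 and 5 of 15 clones were lower. With TMM factors the mean log2 ratio of glycolysis turned from 0.04 to -0.05 and that of housekeeping genes from 0.05 to -0.04. Neither of these 2 lists has a direction. The epithelial mean went from -0.08 to -0.17, with 11 of 15 clones lower, and the mesenchymal mean from 0.18 to 0.09. Among the 10 mesenchymal genes, 5 were called higher and none lower. Of the 14 epithelial genes, Krt19, Krt8, Cdh1 and Tspan8 were called lower, and Lcn2, Msln and Esrp1 higher. Lcn2, the iron-carrier protein lipocalin 2, was at 52.5 to 265.6 CPM against 1.80 to 171.2 CPM, with a slope of 0.48 ± 0.07 (adjusted p = 5.91e-06, limma). Among mitochondrial transcripts, 8 of 11 were called higher and the summed median was 27532 against 15360 CPM, with no positive slope in any of the 11. Of the 10 immediate early genes, Junb, Jun and Ier2 were called lower and Dusp1, Zfp36 and Nr4a1 higher. Over all 19510 genes, 27.3% were called lower and 31.9% higher. Calls in the epithelial and immediate early lists were near or under these shares and are not read as a trait of either list.

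Genes that distinguish the clones did so less in heart-bearing libraries. Over the 15 clones and 4830 genes of at least 50 CPM, the SD between clones of log2(CPM + 1) had a median of 0.33 in heart-free and 0.21 in heart-bearing libraries. It was smaller in heart-bearing libraries for 90.4% of these genes. Genes are not independent replicates, so this is a description. Krt19 lay between 1008 and 1106 CPM in the 6 libraries with the highest heart sums, while the heart-free libraries of the same clones ran from 1310 to 2926 CPM. Cldn18, a tight junction gene of stomach and lung, lay between 38.97 and 46.1 CPM in those 6 libraries and between 0.426 and 294.9 CPM in the heart-free ones of the same clones.

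Cdkn2a and Cdkn2b, neighbouring genes of cell-cycle inhibitors that are often deleted in pancreatic tumours, are among 10 genes chosen for their spread over heart-free libraries, so that spread itself is no finding. In 3 of the 15 clones the heart-free library held almost no Cdkn2a: 0.192 CPM in yfp_6556c4, 0.0946 CPM in yfp_6556c3 and 0.0284 CPM in yfp_6694c2. The heart-bearing library of yfp_6556c4 held 192.3 CPM, that of yfp_6556c3 20.4 CPM and that of yfp_6694c2 22.98 CPM. In the other 5 libraries of the highest heart sums Cdkn2a lay between 167.3 and 189.3 CPM, with 358.9 to 767.3 CPM in the heart-free libraries of those clones. Cdkn2b was at 64.1 CPM in the heart-bearing and at 0.0962 CPM in the heart-free library of yfp_6556c4. Cdkn2a in tumour 1 of yfp_6556c4 was thus near its level in the other 5 libraries and far from that in the heart-free library of its clone.

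The 10 genes of at least 50 CPM that varied most among heart-free libraries were followed from the heart-free to the heart-bearing libraries of each clone. Tns4, an adhesion protein, ran from 0.6 to 374 CPM in heart-free and from 22.1 to 256.7 CPM in heart-bearing libraries of these clones. Pearson's r between the kinds was 0.74 (adjusted p = 0.00603) and Spearman's rho 0.85 (adjusted p = 0.0022, permutation tests of 10 genes, n = 15 clones). Without the 2 clones farthest from the median r was 0.74. For Pcdh7 r was 0.37 (adjusted p = 0.167, permutation test, n = 15 clones). Without the 2 farthest clones r dropped from 0.62 to 0.12 for Crisp1, from 0.59 to 0.34 for Pigr, from 0.67 to 0.43 for Lrp2 and from 0.52 to 0.39 for Cldn18, so these relations rest in part on those clones. It was higher without them for Reg1 (0.83). For Xist, Cdkn2a and Cdkn2b the clones fell into a low and a high set, and no pooled relation is given. Since the genes were chosen for a large spread over heart-free libraries, a smaller spread in the heart-bearing ones follows in part from that choice and is not read. Clones of 1 parent line were counted as separate, which they may not be.

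**Figure D4:**
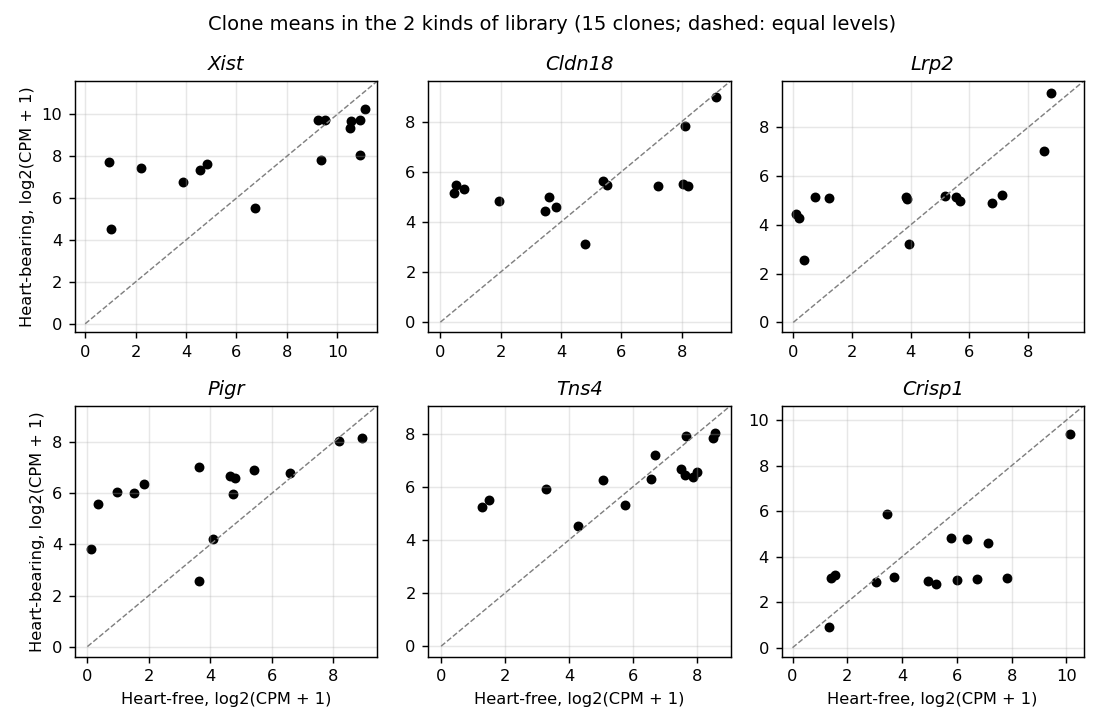
Mean log2(CPM + 1) of 6 clone-variable genes in the heart-free (x) and heart-bearing (y) libraries of 15 clones (points), with equality as a dashed line. The genes were chosen for their spread on the x axis, so a narrower spread on the y axis is in part built in. The order of the clones is kept to a varying degree. Among these 6 genes rho was highest for Tns4 (0.85) and lowest for Crisp1 (0.37, adjusted p = 0.192, permutation test).

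Likeness to the own clone was lower where the heart sum was higher. Over the 500 genes with the largest SD among heart-free libraries, the correlation with the heart-free library of the same clone was 0.95 in tumour 1 of yfp_6499c3, 0.79 in that of yfp_6556c3 and 0.84 in that of yfp_6694c2. In the 6 libraries with the highest heart sums it was 0.33 to 0.53. The median correlation with heart-bearing libraries of other clones was 0.70 in tumour 1 of yfp_6499c3 and 0.90 to 0.91 in those 6, and the highest such value reached 0.99. These correlations are across genes and carry no p. The heart-free library most like a heart-bearing one belonged to the same clone in 7 of 16 cases, by all 19510 genes and by the 500. The own heart-free library was closer than the median heart-bearing library of other clones in 3 of 16 cases by the 500 genes with Pearson's r, those 3 being the libraries of the lowest heart sums. With Spearman's rho it was 4 of 16, and over all genes it was 2 of 16 with Pearson's r and 1 of 16 with Spearman's rho.

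**Figure D5:**
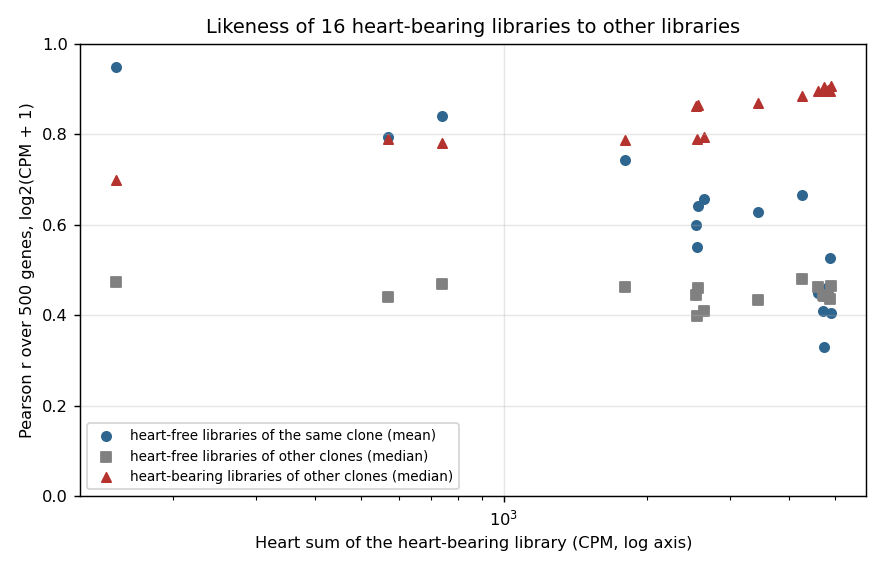
Pearson correlation over 500 genes (y) of 16 heart-bearing libraries with the heart-free libraries of the same clone (circles), heart-free libraries of other clones (squares) and heart-bearing libraries of other clones (triangles), against the heart sum in CPM (x, log axis). Circles run from 0.95 at the lowest heart sum to 0.33 to 0.53 in the 6 highest, where triangles lie near 0.90.

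Of 6 pairs of heart-bearing libraries from sister clones (clones that share the number of a parent line in their title), the correlation over the 500 genes ran from 0.70 to 0.99. It was lowest for yfp_6499c3 and yfp_6499c4, with heart sums of 152 and 4718 CPM, and next lowest, 0.81, for yfp_6556c3 and yfp_6556c4, with 568.3 and 4747 CPM. The other 4 pairs had closer heart sums and correlations of 0.86 to 0.99. Tumour 1 of yfp_7160c2 and tumour 1 of yfp_7160c5 had heart sums of 2553 and 2647 CPM and the highest of these correlations, while their correlations with their own heart-free libraries were 0.55 and 0.66. Epcam, an epithelial adhesion gene, was at 465.7 and 538.6 CPM in this pair, against 864.7 and 1471 CPM in their heart-free libraries and at most 140.2 CPM in every other heart-bearing library. Whether libraries of different clones share reads, cells or RNA was not tested.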

How the data were processed

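RNA was sequenced from sorted tumour cells, and the deposited table gave raw counts of 39017 genes for each of 39 libraries. The authors used STAR, featureCounts and mm10, per the submitters' processing notes. The sources used here give neither versions nor the annotation or strand setting, so overlapping and antisense genes cannot be told apart. Of rows sharing a symbol, the one with most counts was used (214 rows repeated the symbol of an earlier row). Positions are from GENCODE M21 (GRCm38) and promoters from RefSeq (GRCm38.p6). The members and gene lists were chosen with earlier results of these data known.

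Counts of the 34 libraries of clones with both kinds were fitted with edgeR 4.0.16 (R 4.3.3; filterByExpr, TMM factors, quasi-likelihood test, clone as a block, Benjamini-Hochberg adjusted p under 0.05). TMM factors ran from 0.867 to 1.09. Against plain totals they moved the median log2 difference of all genes from 0.14 to 0.03, and with plain totals 7328 genes were called higher and 3973 lower instead of 6215 and 5329. Slopes on the heart sum used limma 3.58.1 on log2(CPM + 1) in the 19 heart-bearing libraries. Named genes were the 4 of the sum, Alb, Fga, the 15 highest with a log2 difference over 4, the 15 lower ones of smallest p, the leading list members and 10 clone-variable genes. Pseudogene, Gm and Riken names were passed over, and 1 of the 15 lower genes is not reported here. DESeq2 1.42.0 was an alternative. On simulated data with 200 changed genes, the contrast over 18757 genes recovered 89% and 94% of log2 changes of 1 and 2 with 4.19% false calls. The slope fit over 14914 genes recovered 88% and 95% of slopes of 0.5 and 1 with 4.19% false calls. The simulated libraries had no differences between clones, while the 19 real ones came from 18 clones and the slope fit has no clone term. Its recovery in the real data is therefore not known.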

Additional observations from a re-analysis of the deposited data

Results flagged for a closer look

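Of the clones, 2 had 4 libraries, enough for a check of single samples far from the others of their group (Dixon's critical value 0.829), which chance passes in about 1 in 20 groups. In yfp_2838c3, tumour 1 had a heart sum of 3431 CPM, while the other 3 libraries had 0 CPM. The gap took the whole range, which the split into kinds fixes for a clone with 1 heart-bearing library, so it adds nothing to the split. Alb was at 4795 CPM in the same library and at 9.98 to 36.5 CPM in the other 3. Library total, Krt19, Xist and Stub1 passed the critical value in neither clone.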

How the results depend on the processing

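Kind and title number overlap almost completely, so a replicate block on the number leaves little of the contrast: over all libraries 2776 genes were called higher and 2104 lower, and with clone and replicate block together 2441 and 2130, against 6215 and 5329. A shared number is not stated to mark a shared batch, and the pairing of numbers could not be checked apart from the kind. Asking for a log2 difference beyond 1 left 476 lower genes. With TMM factors 3921 slopes were negative. Other settings kept the counts within 1.5 times: DESeq2 size factors, the DESeq2 test, limma-voom, no filter, no block, other thresholds and leaving out each library in turn, which gave 5979 to 6265 higher and 5029 to 5461 lower calls and 3683 to 4098 positive and 1254 to 1628 negative slopes. Without libraries of 10 to 1000 CPM, an alternative chosen after seeing the data, there were 6082 higher and 5242 lower calls and 2655 positive and 1128 negative slopes. The SD of the log2 ratio of Alb to Myl2 alone was 0.092 instead of 0.072. Leaving out each clone in turn moved the mean log2 difference of totals between -0.14 and 0.05, with a change of sign without yfp_2699c4 (0.0521), yfp_6419c5 (0.0119), yfp_6422c5 (0.0357) or yfp_6556c4 (0.00311). The cause was not tested. The genes of the heart sum and the named higher and lower genes kept their direction in the contrast under all of these settings. Among them, Zfhx3 lost its call with clone and replicate block together. Other list members and the clone-variable genes were not checked in this way. Depth limits genes under about 0.5 CPM, where a library holds few reads.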
